A study of Mesocricetus auratus with 38 samples.

Results

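The livers of hamsters that received the higher dose of combined metabolic activators (CMA) on a high-fat diet (HFD) were compared with the livers of hamsters on a normal diet, to describe what still differed from a normal-diet liver after the treatment and what was at the normal-diet level. The comparison took, by their treatment labels, 10 HFD + MI_D2 libraries (Dose II) and 9 Chow diet libraries (control), 19 of the 38 libraries of the series. All animals were male Golden Syrian hamsters, whose livers were sampled at an age of 22 weeks after 6 h of diurnal fasting. Fat gave 11% of the calories in the control diet, eaten for 12 weeks. In the HFD, eaten by the Dose II hamsters for the same 12 weeks, fat gave 23% of the calories and 1 g/kg cholesterol was added, and in the last 4 weeks these animals received daily 400 mg/kg each of L-carnitine (as its tartrate), N-acetylcysteine and nicotinamide riboside in diluted low-fat condensed milk, and 800 mg/kg betaine in the drinking water. The 10 libraries of the HFD group, on the same diet with a placebo, were used as the reference for what the diet had changed. Dose II and control therefore differed in both diet and CMA, and these cannot be told apart in their direct comparison. The labels name no animals, so each library was taken as 1 hamster.

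L-carnitine carries fatty acids into mitochondria, N-acetylcysteine gives cysteine for glutathione, nicotinamide riboside is a precursor of NAD+, and betaine gives a methyl group to homocysteine to form methionine. A liver that receives cholesterol from the diet is known to turn down its own sterol synthesis through SREBP-2, and fatty acid synthesis from citrate (ATP citrate lyase, acetyl-CoA carboxylase, fatty acid synthase) is driven by SREBP-1c and ChREBP after carbohydrate meals. Amino acid breakdown and the urea cycle are concentrated in hepatocytes near the portal vein.

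The tables held 14631 gene symbols, and each library held 4075610 to 10384500 estimated counts, of which Alb, the albumin gene of hepatocytes, took 16.9% to 20.02% in control and 10.1% to 14.9% in Dose II. One control library (P15763_105) stood apart. Its root-mean-square distance from the median control library was 1.07 on the log2 CPM scale, against 0.327 to 0.447 for the other 8 and 0.481 to 0.672 for Dose II. Values below are from the fit of 37 libraries without it, with the values of all 38 libraries beside some of them. Where none is given, the value can still differ with that library included. The relation of expression to gene length also moved with the groups. The Spearman correlation, across genes, of a library's deviation from the mean with gene length was 0.105 to 0.335 in the 8 control libraries, -0.293 to 0.0916 in Dose II and -0.355 in library P15763_105. Control and Dose II did not overlap in it, so short genes were relatively higher and long genes lower in Dose II, and its part in the gene-level results is given for some of them.

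Of 9099 genes tested, 2177 were higher (23.9%) and 2133 lower (23.4%) in Dose II than in control at an adjusted p under 0.1 (edgeR quasi-likelihood test, Benjamini-Hochberg). On the TPM scale with limma the same libraries gave 1555 higher and 2821 lower. With library P15763_105 included the counts were 1413 higher (15.6%) and 1567 lower (17.3%) of 9045. Most differences were small. Only 451 of the 4310 genes called differed by more than 1 on the log2 scale, 201 higher and 250 lower. For 4324 genes (47.5%) the difference was shown to lie within 0.5 on the log2 scale by an equivalence test (a pair of one-sided tests from the same fit, adjusted p under 0.1), and 1036 of these also passed the test for a difference. For 1501 genes, neither test passed, so that these data place them neither apart from control nor near it. The ranges of the 10 Dose II and 8 control libraries did not overlap for 213 genes that were above (2.34%) and 232 that were below (2.55%).

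The diet alone set the frame for these counts. HFD differed from control in 3296 genes, 1647 higher (18.1%) and 1649 lower (18.1%), and Dose II differed from HFD in 307 higher (3.37%) and 205 lower (2.25%). Of the 3296, 2728 were also called with the same sign between Dose II and control, 360 were not called and within 0.5 of control, 205 were neither, and 3 were called with the opposite sign. Stricter classes were used that ask for a difference between Dose II and HFD as well. By these, 55 genes were back at the control level (called in HFD, called in Dose II against HFD with the opposite sign, not called against control and within 0.5 of it), 5 were partly back, 3 had passed the control level and 149 lay farther from control than in HFD with both steps called. A further 21 genes had opposite signs in both steps but were neither called against control nor within 0.5 of it. The comparisons still share libraries, and HFD enters HFD against control and Dose II against HFD with opposite signs. The class counts are therefore a description. For many of the 55, the HFD estimate itself lay within 0.5 of control, as for Pcca (-0.24), Mccc1 (-0.30) and Cps1 (-0.32). For these genes the bound alone does not set Dose II apart from HFD. Their place in the class rests on the 3 calls. With library P15763_105 included, 30 genes were back, 3 partly back and 22 farther.

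Fatty acid synthesis lay below control as a group, and more so than in HFD. Of its 17 genes tested, 12 were lower and 2 higher in Dose II than in control, with a median log2 difference of -0.73 (-0.002 over all genes tested), and the counts were the same with all 38 libraries. In HFD, 8 of the 17 were lower than control and 2 higher (median -0.29). Against HFD, 3 were lower in Dose II and 0 higher, and 3 of the 17 were in the class farther from control. The drop from control to Dose II was deepest in Acly, ATP citrate lyase, which makes cytosolic acetyl-CoA from citrate. Its lowest, median and highest CPM were 102.03, 723 and 2372 in control, 13.6, 23.9 and 472 in HFD and 7.68, 15.2 and 50.2 in Dose II. Where 3 CPM values are given for a group below, they are these. Every Dose II library lay below every control library, whereas HFD spanned from the Dose II range into the control range. The difference from control was -5.28 ± 0.64 (SE), adjusted p = 7.35e-08 on the log2 scale, 38.9-fold lower, and Dose II was also lower than HFD (-2.17 ± 0.56 (SE), adjusted p = 0.0256). Within control, 1 library (P15763_109) held 2372 CPM and the next 926.

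Pnpla3, a lipid-droplet hydrolase gene induced by SREBP-1c, held 62.4, 295 and 538 CPM in control, 46.01, 109.5 and 247 in HFD and 16.8, 29.2 and 99.3 in Dose II (lowest, median and highest). The ranges of Dose II and control overlapped. Its log2 difference from control was -2.69 ± 0.38 (SE), adjusted p = 1.03e-06, and from HFD -1.49 ± 0.36 (SE), adjusted p = 0.0158. Acaca, acetyl-CoA carboxylase, which commits acetyl-CoA to fatty acids, was at a median of 321 CPM in control and 84.2 in Dose II (-1.30 ± 0.29 (SE), adjusted p = 5.71e-04). For Scd1, the desaturase that makes oleate, the medians were 1743 and 817 CPM (-0.73 ± 0.23 (SE), adjusted p = 0.0106). The ranges of Acaca and Scd1 overlapped between the groups, and neither differed between Dose II and HFD at the threshold (log2 -0.56, adjusted p = 0.273, and -0.44, adjusted p = 0.278).

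The elongases of long polyunsaturated fatty acids also fell, Elovl2 by 0.78 and Elovl5 by 0.76 on the log2 scale (edgeR adjusted p = 3.57e-06 and 2.83e-06), each with every Dose II library below every control library. Mlxipl, which codes for ChREBP, was one of the 2 members that rose, from a control median of 216 to 390.0 CPM (0.84 ± 0.11 (SE), adjusted p = 1.50e-07). Beyond synthesis, Gpam, which starts glycerolipid synthesis, was lower (log2 -1.34 ± 0.29 (SE), adjusted p = 3.29e-04). Plin2, a lipid droplet coat protein, varied widely, from 49.04 to 663 CPM in Dose II and from 309 to 1232 in control, with a difference of -1.22 ± 0.48 (SE), adjusted p = 0.0382 (adjusted p = 0.0521 with library P15763_105 included). Among all 27 genes of triacylglycerol synthesis and lipid droplets, 6 were higher and 6 lower (3 and 7 with library P15763_105). In 37 libraries these shares were near those of all genes (23.9% and 23.4%).

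**Figure D1:**
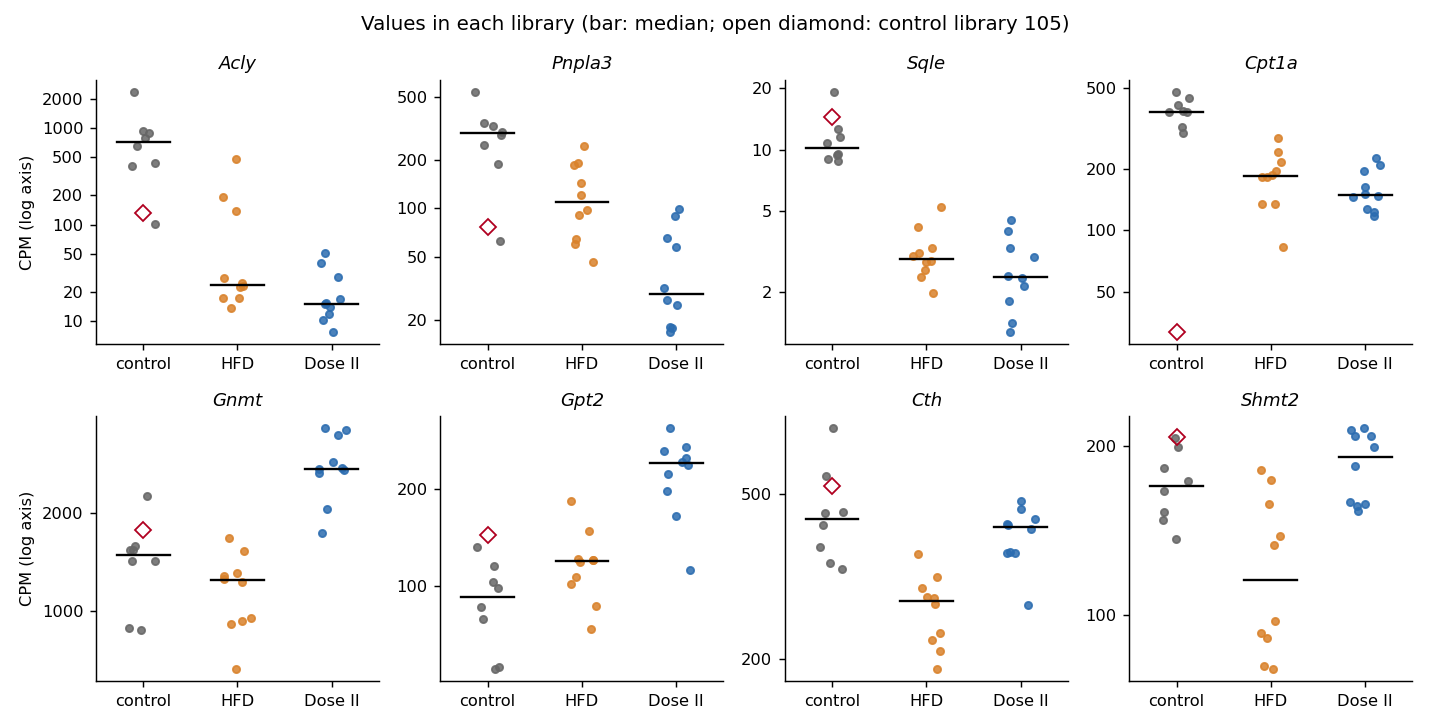
Normalised CPM (log axis) of 8 genes in each control, HFD and Dose II library, with the median as a bar and control library P15763_105 as an open diamond. Acly, Pnpla3, Sqle and Cpt1a lie lower in Dose II than in control, Gnmt and Gpt2 lie higher, and Cth and Shmt2 lie at the control level after lower values in HFD.

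Cholesterol synthesis stayed below control as a group. Of 18 genes tested, 14 were lower and 1 higher (14 and 0 with library P15763_105), with a median log2 difference of -0.94, and 8 had every Dose II library below every control library. In HFD, 13 of the 18 were lower than control (median -0.64) and none was higher. Sqle, squalene epoxidase, held 8.78, 10.2 and 19.2 CPM in control and 1.28, 2.37 and 4.51 in Dose II, ranges that did not meet (-2.13 ± 0.21 (SE), adjusted p = 2.27e-09). Its HFD range, 1.98, 2.92 and 5.21 CPM, overlapped that of Dose II, and the 2 HFD-fed groups did not differ at the threshold (-0.28 ± 0.22 (SE), adjusted p = 0.54).

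Some other steps differed from HFD, with 3 of the 18 genes lower in Dose II and 1 higher. Hmgcs1, an early enzyme of the pathway in the cytosol, was at 23.9, 29.2 and 59.4 CPM in control, 11.5, 17.1 and 21.7 in HFD and 6.98, 12.7 and 15.5 in Dose II (-1.44 ± 0.15 (SE), adjusted p = 9.42e-09 against control and -0.49 ± 0.15 (SE), adjusted p = 0.0689 against HFD). Nsdhl, a later demethylation enzyme, was in the same class, with a log2 difference of -0.98 ± 0.12 (SE), adjusted p = 6.46e-08 from control and -0.38 ± 0.11 (SE), adjusted p = 0.0569 from HFD. In all, 3 of the 18 genes were farther from control than in HFD, and none was in the back class. Msmo1, the sterol methyl oxidase before Nsdhl, was below every control library (-1.53 ± 0.18 (SE), adjusted p = 4.13e-08) and did not differ from HFD at the threshold (adjusted p = 0.21).

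Sterol sensing and uptake moved less as a group, with 4 of 12 genes lower and 1 higher (5 and 1 with library P15763_105). The shares of all genes tested were 23.4% lower and 23.9% higher. Stard4, which carries cholesterol inside cells, was lower by log2 -1.99 ± 0.31 (SE), adjusted p = 4.36e-06, and Srebf2, the gene of SREBP-2 itself, by -0.88 ± 0.14 (SE), adjusted p = 3.95e-06. On the export side, Abcg5, part of the canalicular sterol transporter, was higher (0.58 ± 0.17 (SE), adjusted p = 0.00778). Cyp27a1, the mitochondrial sterol 27-hydroxylase, rose from 151, 186 and 273 CPM in control to 281, 422 and 506 in Dose II (1.01 ± 0.17 (SE), adjusted p = 9.26e-06), with no overlap. Cyp7a1, the rate-limiting enzyme of bile acid synthesis, spanned 13.2, 16.2 and 24.5 CPM in control and 2.17, 6.29 and 45.3 in Dose II and did not pass the test (-0.54 ± 0.42 (SE), adjusted p = 0.311), nor was it shown to lie within 0.5. Without Dose II library P15763_131 it was called lower than control (log2 -1.06, edgeR adjusted p = 0.0263). Akr1d1, the reductase that shapes the bile acid steroid ring, was below every control library (-0.87 ± 0.15 (SE), adjusted p = 1.72e-05). Cyp8b1, which sets the share of cholic acid, was within 0.5 of control (log2 0.08).

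Cpt1a, Ppara and Cd36, which the diet had lowered, were still below control. Cpt1a, the carnitine palmitoyltransferase that admits fatty acids to mitochondria, held 301, 383 and 479 CPM in control, 82.8, 184 and 284 in HFD and 117.9, 149 and 227 in Dose II. All Dose II libraries lay below all control libraries (-1.28 ± 0.17 (SE), adjusted p = 4.47e-07), with no difference from HFD at the threshold (-0.20 ± 0.16 (SE), adjusted p = 0.543). Ppara, the nuclear receptor of the fasting response, followed with 68.8, 94.2 and 166 CPM in control and 25.2, 49.4 and 64.8 in Dose II (-1.12 ± 0.22 (SE), adjusted p = 1.33e-04). Cd36, a fatty acid translocase, was also below control in every library (-0.89 ± 0.13 (SE), adjusted p = 1.25e-06) and did not differ from HFD at the threshold (log2 -0.00, adjusted p = 0.989). Library P15763_105 lay lower still, at 31.7 CPM for Cpt1a and 9.31 for Ppara, and all 3 calls held with it included.

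Of 30 mitochondrial genes of fatty acid oxidation, 6 were higher and 8 lower (median -0.01), shares near those of all genes, and 22 were within 0.5 of control. With library P15763_105 included 5 were higher and 7 lower. With limma on the TPM scale 4 were higher and 14 lower. HFD had 11 of the 30 below control and 2 above, and 2 of the 30 were in the back class. In peroxisomes, Abcd3, a transporter of long-chain acyl-CoA, fell in steps from 374, 401 and 651 CPM in control through 179, 286 and 402 in HFD to 154, 197 and 240.1 in Dose II (-1.17 ± 0.14 (SE), adjusted p = 5.02e-08 against control). Phyh, which starts the oxidation of phytanic acid, rose instead (0.76 ± 0.11 (SE), adjusted p = 1.68e-06), as did Acot13, a mitochondrial thioesterase (0.76 ± 0.10 (SE), adjusted p = 1.64e-07).

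Among lipoprotein genes, Apoa2, which codes for the apolipoprotein A-II of HDL, was among those with the smallest p of all genes. It held 1602, 2431 and 3609.7 CPM in control and 5384, 6037 and 7938 in Dose II, 2.52-fold higher with no overlap (1.34 ± 0.12 (SE), adjusted p = 7.67e-10). The highest log2 difference of any tested lipoprotein gene was 1.08 with library P15763_105 included and 1.06 with the length trend taken out. The difference of Apoa2 was thus no larger than these in those fits, and its call held. Mttp and Apob, which lipidate and form VLDL, moved the other way, from medians of 477 and 4600.2 CPM to 245 and 3023, both without overlap (edgeR adjusted p = 1.09e-06 and 5.32e-07). Apob is a very long gene, and with each library's length trend taken out its log2 difference went from -0.58 to -0.20 (adjusted p = 0.0256), while that of Mttp went from -1.002 to -0.97. Of 50 plasma protein genes, 17 were lower and 10 higher (17 and 4 with library P15763_105), against 23.4% lower and 23.9% higher of all genes tested.

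Several enzymes of amino acid and methyl-group metabolism stood above both control and HFD. Gnmt, glycine N-methyltransferase, which spends excess S-adenosylmethionine, held 875, 1483 and 2248 CPM in control, 667, 1242 and 1671 in HFD and 1728, 2719 and 3610.2 in Dose II. Every Dose II library was above every HFD library, and the Dose II and control ranges overlapped (0.95 ± 0.20 (SE), adjusted p = 2.20e-04 against control, 1.25 ± 0.19 (SE), adjusted p = 1.60e-04 against HFD). Dmgdh, which oxidises the dimethylglycine left when betaine gives up a methyl group, was below control in HFD (-0.39 ± 0.09 (SE), adjusted p = 0.00157) and above it in Dose II (0.36 ± 0.09 (SE), adjusted p = 0.00162), with 331, 370.5 and 457 CPM in control and 405, 492.6 and 559.5 in Dose II. It was 1 of the 3 genes that passed the control level, with Bphl and Mmp12, which lie outside the rule for named genes and are given because the class is this small.

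Gpt2, the mitochondrial alanine aminotransferase, was 2.49-fold above control, with 55.3, 92.3 and 132.5 CPM in control and 112.4, 240.1 and 308 in Dose II (1.31 ± 0.22 (SE), adjusted p = 1.08e-05). Prodh, proline dehydrogenase, had the smallest adjusted p of all genes. Its ranges were 71.5, 96.3 and 114.98 CPM in control, 113.1, 131.1 and 153 in HFD and 167, 179.6 and 212 in Dose II, so that Dose II overlapped neither group (0.93 ± 0.08 (SE), adjusted p = 2.90e-10 against control and 0.46 ± 0.07 (SE), adjusted p = 5.14e-04 against HFD). Hoga1, an enzyme of hydroxyproline breakdown, showed the same order, with Dose II above all libraries of both groups (0.93 ± 0.11 (SE), adjusted p = 2.79e-08 against control). Prodh, Gpt2, Gnmt and Hoga1 kept their calls with library P15763_105 included, with log2 differences of 0.87, 1.22, 0.92 and 0.91.

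Folate and sulphur enzymes moved in both directions. Fpgs, which adds glutamates to folates and so keeps them in the cell, was higher (1.64 ± 0.24 (SE), adjusted p = 1.49e-06), whereas Mtr, the folate-dependent methionine synthase, was lower (-0.94 ± 0.21 (SE), adjusted p = 4.60e-04). Cbs, the first enzyme of transsulfuration, was not changed by the diet at the threshold and rose in Dose II from 175, 199 and 294 to 263, 311 and 415 CPM (0.55 ± 0.11 (SE), adjusted p = 1.22e-04). Suox, sulfite oxidase, lay farther from control than in HFD (log2 0.28 in HFD and 0.78 in Dose II). Of the 32 genes of betaine, folate and glycine metabolism, 10 were higher and 5 lower than control (7 and 6 with library P15763_105), and of the 28 genes of the urea cycle and arginine metabolism, 9 were higher and 6 lower (7 and 5). Over all genes tested, 23.9% were higher and 23.4% lower (15.6% and 17.3% with library P15763_105). Whether these lists depart from those shares was not tested. Pck1, the gluconeogenic enzyme PEPCK, was higher than control (0.80 ± 0.24 (SE), adjusted p = 0.00788) without a called difference from HFD (adjusted p = 0.104).

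The 55 genes back at the control level included enzymes of amino acid breakdown that the diet had lowered. Of the 55, 29 had been lower and 26 higher in HFD. Cth, cystathionine gamma-lyase, which releases cysteine, held 331, 435 and 719 CPM in control, 189.7, 276 and 358 in HFD and 271, 417 and 482 in Dose II. Its log2 difference from control was -0.77 ± 0.14 (SE), adjusted p = 1.63e-04 in HFD and -0.19 ± 0.14 (SE), adjusted p = 0.288 in Dose II. Shmt2, the mitochondrial serine hydroxymethyltransferase, was at 136.7, 169.6 and 207 CPM in control, 80.04, 115.2 and 182 in HFD and 153, 192 and 215 in Dose II, where all libraries lay within or just above the control range. Cps1, which makes carbamoyl phosphate for the urea cycle, was -0.32 in HFD and 0.13 in Dose II on the log2 scale, and Got1, the cytosolic aspartate aminotransferase, -0.31 and 0.22. Acsm1, a medium-chain acyl-CoA synthetase, was -0.32 in HFD and -0.05 in Dose II. Cps1 left this class once the length trend was taken out, being then called higher than control (log2 0.31, adjusted p = 0.0563). Acsm1 was called against control with limma on the TPM scale.

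The class held 3 enzymes of branched-chain amino acid breakdown, Mccc1 and Mccc2, the subunits of methylcrotonyl-CoA carboxylase of the leucine route, and Pcca, of propionyl-CoA carboxylase. Mccc1 held 135.3, 145 and 156 CPM in control, 100.3, 117.7 and 130.8 in HFD and 118.6, 135.8 and 153 in Dose II. Mccc1 was called against control with offsets for each library's effective gene lengths and with limma on the TPM scale. The diet differences of the 3 genes were -0.30, -0.39 and -0.24 on the log2 scale, and the Dose II differences -0.09, -0.07 and -0.04. In this route HFD had 12 of 26 genes below control and 3 above, and Dose II 7 below and 6 above, with 19 of the 26 within 0.5 of control. All genes tested gave 18.1% below and 18.1% above in HFD. In Dose II they gave 23.4% below, 23.9% above and 47.5% within 0.5. The Dose II shares of the route below and above control were thus near those of all genes. With library P15763_105 included Dose II had 5 below and 6 above. With limma on the TPM scale 5 were higher and 10 lower. Mmut, methylmalonyl-CoA mutase, stayed low (-0.46 ± 0.07 (SE), adjusted p = 7.10e-06), with every library below control. Bcat2, the branched-chain aminotransferase, was low in abundance in control (2.92, 3.82 and 5.88 CPM) and rose to 7.31, 10.36 and 13.5 CPM in HFD and 7.18, 14.4 and 24.4 in Dose II, 3.57-fold above control (1.84 ± 0.22 (SE), adjusted p = 8.03e-08). Bckdha, a subunit of the dehydrogenase that follows, rose as well (0.77 ± 0.13 (SE), adjusted p = 1.57e-05). Mmaa, which helps to load cobalamin onto methylmalonyl-CoA mutase, was above every control library by a small difference that passed both tests (0.37 ± 0.06 (SE), adjusted p = 6.65e-06).

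**Figure D2:**
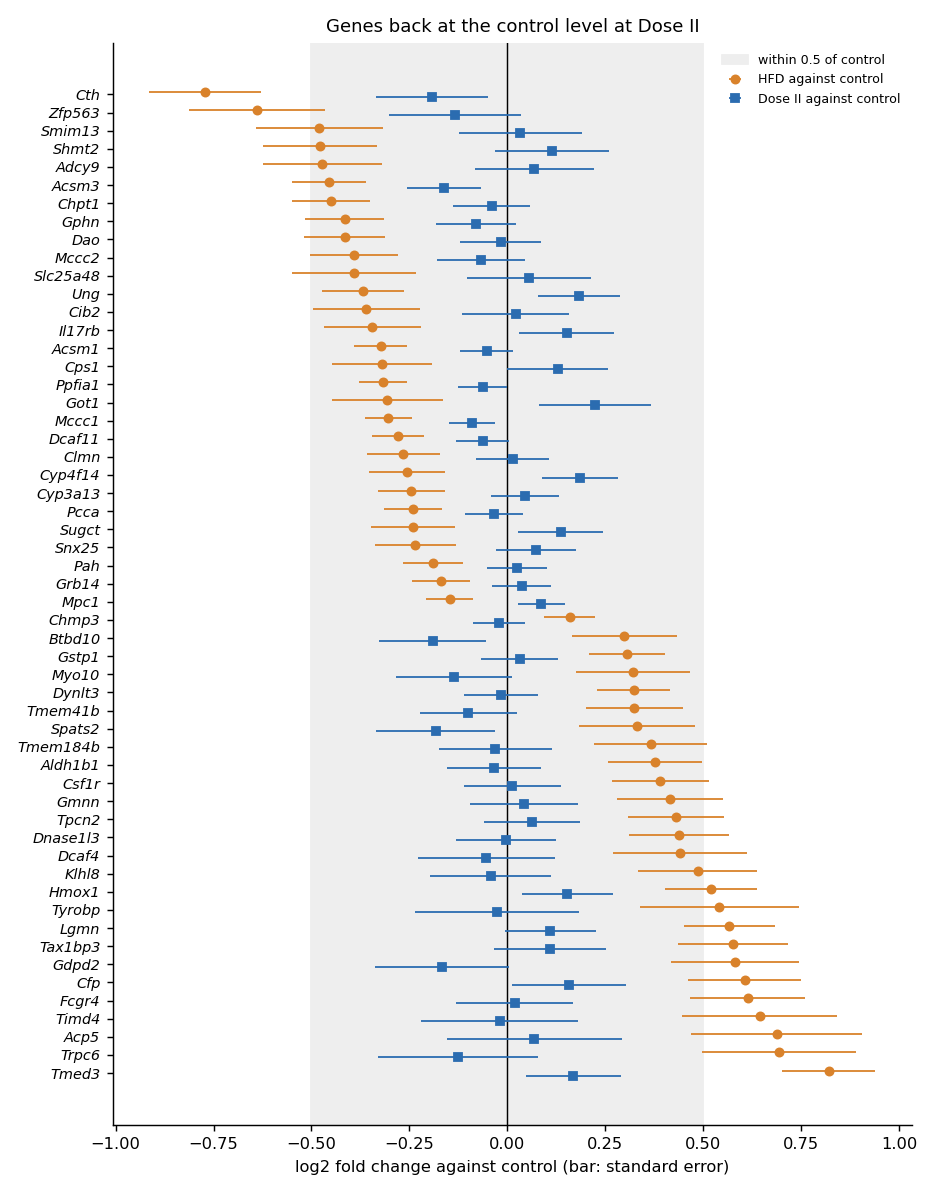
Log2 fold change against control (with its standard error) of the 55 genes back at the control level, in HFD (circles) and Dose II (squares), with the band within 0.5 of control shaded. The class was chosen on these values, so the squares lie near 0 by construction, and the largest HFD differences are those of Cth (-0.77) and Tmed3 (0.82).

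The study names 35 genes for their response to CMA. They were chosen on these samples, so their direction against HFD is not independent evidence, and 29 of them were higher in Dose II than in HFD here. Against control, 21 were higher, none was lower and 14 were not called, of which 9 were in the back class. With library P15763_105 included 16 were higher and none lower, with effective-length offsets 21 were higher and 1 lower, and with limma on the TPM scale 19 were higher and 4 lower. Ass1, argininosuccinate synthase of the urea cycle, was 1 of the calls lost (0.39 ± 0.14 (SE), adjusted p = 0.0244 in 37 libraries, adjusted p = 0.22 in 38). Among 4 genes the study names as not responding to CMA, Cpt1a and Gpam were lower than control, 1 was higher, and 1 was not called and within 0.5.

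Macrophage genes were also among those back at the control level. In HFD, 15 of 24 Kupffer cell and macrophage markers were higher than control and none was lower (median 0.51). In Dose II, 6 were higher and 4 lower than control (median 0.06), and 9 were lower and 1 higher than HFD (median -0.44). Among all genes tested, 18.1% were higher and 18.1% lower in HFD than in control. For Dose II these shares were 23.9% higher and 23.4% lower than control, and 3.37% higher and 2.25% lower than HFD. The summed CPM of the whole list of 26 matched markers was 416 to 499.8 in control, 466.4 to 844 in HFD and 349 to 663 in Dose II, and 844 in control library P15763_105. With the length trend taken out 3 markers were higher and 3 lower than control, and with limma on the TPM scale 3 and 6. None of the markers was at 0 in all control and Dose II libraries. In bulk liver RNA, fewer cells of a type and less RNA per cell cannot be told apart.

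Single markers divided. Timd4, a receptor of resident Kupffer cells, held 6.58, 10.2 and 14.1 CPM in control, 8.06, 15.1 and 23.2 in HFD and 5.93, 9.59 and 12.4 in Dose II. Its log2 difference from control went from 0.64 ± 0.20 (SE), adjusted p = 0.0135 in HFD to -0.02 ± 0.20 (SE), adjusted p = 0.95 in Dose II. Csf1r, the receptor for the macrophage growth factor, went from 0.39 to 0.01, Tyrobp, an adaptor of myeloid receptors, from 0.54 to -0.03, and Hmox1, which breaks down haem, from 0.52 to 0.15. Csf1r, Tyrobp and Hmox1 were named after their values were seen, because with Timd4 they were the 4 list members in the class. Outside the list, the Fc receptor gene Fcgr4, the properdin gene Cfp and the acid phosphatase gene Acp5 were also in the class, with HFD differences of 0.61, 0.61 and 0.69 and Dose II differences of 0.02, 0.16 and 0.07. In library P15763_105 Tyrobp was at 11.7 CPM, above every HFD library (highest 9.91), and Csf1r at 54.02, above every Dose II library (highest 40.5). Timd4, Fcgr4, Cfp and Acp5 also lay above the other 8 control libraries in it, and Hmox1 (16.5) within their range. None of these genes was called against control with it included.

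Marco, a scavenger receptor, came only partly back, from a median of 91.5 CPM in HFD to 55.8 in Dose II against 43.3 in control (0.48 ± 0.16 (SE), adjusted p = 0.0117 against control). The complement genes C1qa and C1qc stayed above control (0.51 and 0.59 on the log2 scale) without a called difference from HFD. Mrc1, the mannose receptor, which Kupffer and endothelial cells share, was below control (-0.72 ± 0.20 (SE), adjusted p = 0.00324). Library P15763_105 lay above every Dose II library for Marco, C1qa and C1qc, with 105.1 CPM for Marco and 104.8 for C1qa. With it included, 1 of 23 markers was higher and 2 were lower than control, and Marco, C1qa and C1qc were no longer called (adjusted p = 0.238, 0.511 and 0.333).

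**Figure D3:**
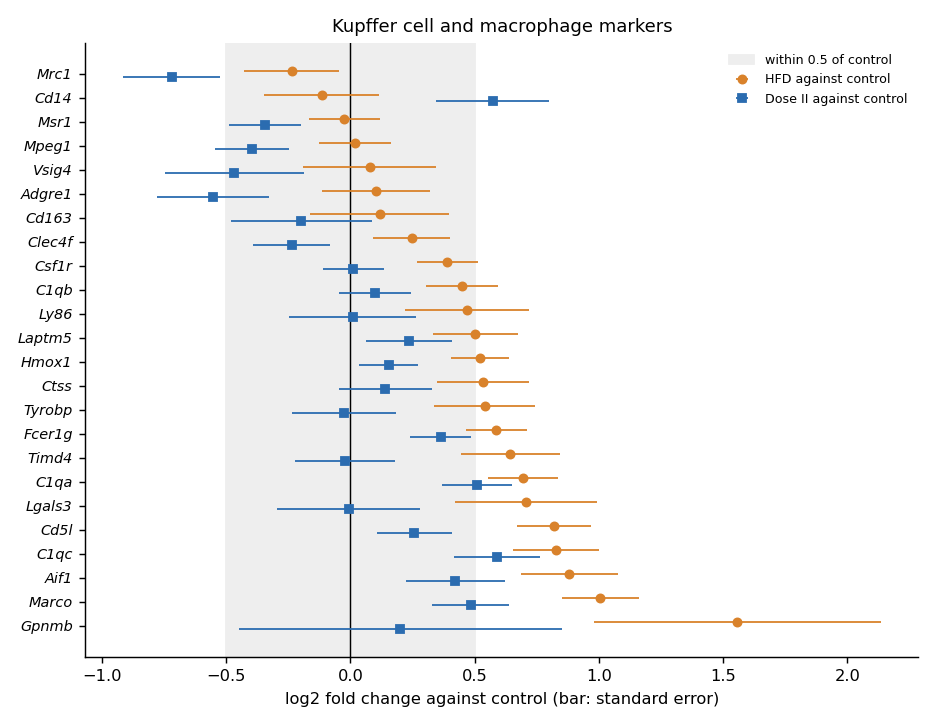
Log2 fold change against control (with its standard error) of the 24 tested Kupffer cell and macrophage markers in HFD (circles) and Dose II (squares), with the band within 0.5 of control shaded. Marco, C1qc and C1qa lie above 0 in both groups, and Mrc1 lies at -0.72 in Dose II.

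Among endothelial and stellate markers more were lower than higher. Of 24 sinusoidal endothelial markers, 8 were lower and 3 higher (7 and 0 with library P15763_105), and of 33 genes of stellate cells and matrix, 8 were lower and none higher (7 and 0). Among all genes tested, 23.4% were lower and 23.9% higher, and the lower share of the stellate list was close to that of all genes. With the length trend taken out, 6 endothelial markers were lower and 2 higher (median -0.07, from -0.15), and 5 stellate genes were lower and 1 higher (median -0.10, from -0.24). Of 9 bile duct markers 2 were higher and 1 lower (median 0.34), and of 7 lymphocyte markers 1 was higher and 2 lower. The summed level of the whole lymphocyte list was 265 to 492 CPM in control and 353 to 559.5 in Dose II, which overlapped. Their summed levels overlapped, at 422 to 592 CPM in control and 355 to 527 in Dose II for endothelium, and at 3089 to 4588 and 2166 to 3932 for stellate cells and matrix. Reln, made by stellate and lymphatic cells in liver, held 25.6, 42.3 and 51.5 CPM in control and 13.6, 18.5 and 24.9 in Dose II (-1.12 ± 0.16 (SE), adjusted p = 7.46e-07). Col14a1, a fibril-associated collagen, had no overlap either (-0.71 ± 0.15 (SE), adjusted p = 2.57e-04), and Kdr, the VEGF receptor of endothelium, overlapped (-0.54 ± 0.15 (SE), adjusted p = 0.00298). Ptprb, the endothelial tyrosine phosphatase, was lower than both control (-0.78 ± 0.18 (SE), adjusted p = 6.53e-04) and HFD (log2 -0.60, adjusted p = 0.0478). Reln, Col14a1 and Kdr are long genes, and with the length trend taken out their log2 differences were -0.80, -0.55 and -0.35, all still called.

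The partly back class held 5 genes, Marco, Tnfaip8, Exoc3l4, Trnp1 and Uox. Tnfaip8, a TNF-induced regulator of cell death, was at a median of 2.25 CPM in control, 8.32 in HFD and 4.62 in Dose II (1.01 ± 0.32 (SE), adjusted p = 0.0103 against control). Uox, urate oxidase, was the only one of the 5 lowered by the diet, and its Dose II difference of -0.18 (edgeR adjusted p = 0.0593) passed both tests. The call of Uox was lost without any 1 of the control libraries P15763_104, P15763_108 and P15763_109. Exoc3l4, an exocyst-related gene, was at medians of 4.40, 15.3 and 7.74 CPM in control, HFD and Dose II.

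The class farther from control held 97 genes above and 52 below it. Beside the lipid genes above, it included Cpxm2, a carboxypeptidase-like protein gene, with 4.29, 9.30 and 33.6 CPM in control, 0.878, 4.07 and 12.4 in HFD and 0.343, 0.800 and 2.61 in Dose II (-3.31 ± 0.47 (SE), adjusted p = 9.34e-07 against control). Slc5a8, a sodium-coupled monocarboxylate transporter gene, was at 4.098, 9.01 and 15.7 CPM in control and 0.307, 0.952 and 2.11 in Dose II, again with no overlap. Adgrg2, an adhesion G protein-coupled receptor gene, had the smallest adjusted p among genes lower than control (-1.84 ± 0.18 (SE), adjusted p = 1.57e-09), followed by Sqle and Nrp1, a co-receptor of VEGF and semaphorins (-1.55 ± 0.16 (SE), adjusted p = 6.98e-09). Rarres2, the chemerin gene, was higher in every Dose II than control library (0.92 ± 0.09 (SE), adjusted p = 2.27e-09) and also above HFD (log2 0.26, adjusted p = 0.0775). The number of genes in this class moved with single libraries. It held 22 genes with control library P15763_105 included, 87 without Dose II library P15763_135 and 226 without Dose II library P15763_133.

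**Figure D4:**
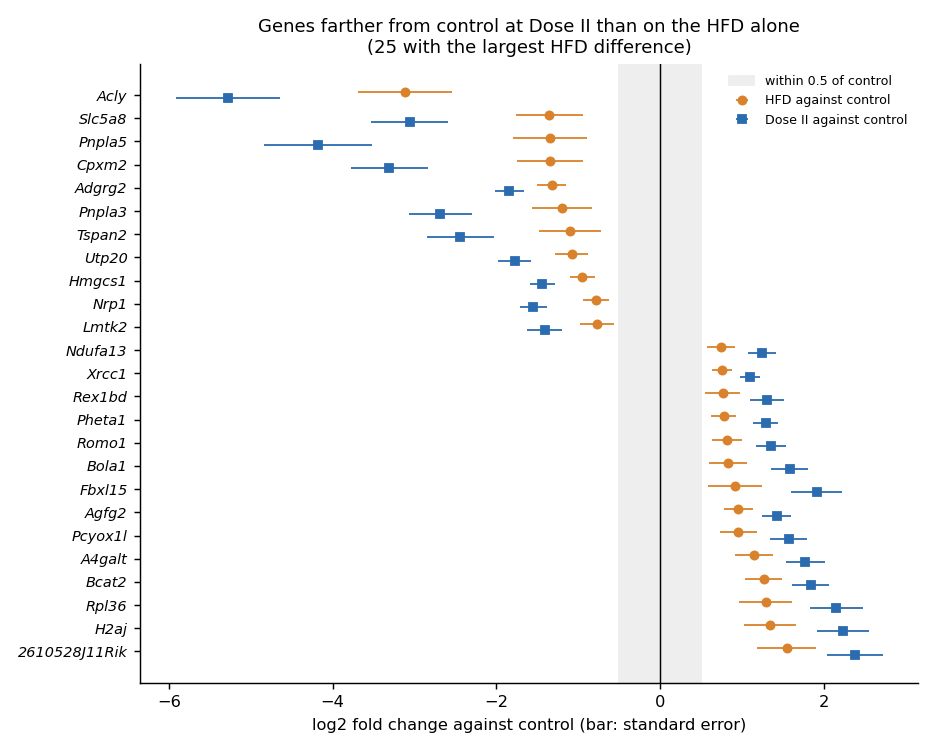
Log2 fold change against control (with its standard error) in HFD (circles) and Dose II (squares) of the 25 genes with the largest HFD difference among those farther from control at Dose II. Acly lies at -3.11 in HFD and -5.28 in Dose II, and Bcat2 at 1.26 and 1.84.

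Other large differences of the diet were simply still there. Cyp2g1, a P450 gene, held 6.43, 10.2 and 26.6 CPM in control, 0.174, 1.22 and 3.26 in HFD and 0, 1.36 and 5.67 in Dose II, with no overlap between Dose II and control (-2.82 ± 0.45 (SE), adjusted p = 4.75e-06). Irs1, the insulin receptor substrate, was -1.21 in HFD and -1.19 in Dose II on the log2 scale against control, and Pdk1, a kinase that inactivates pyruvate dehydrogenase, -1.13 and -1.15 (edgeR adjusted p in Dose II = 1.09e-04 and 7.51e-06). Among the genes with the smallest p in the upward direction, Aprt, which salvages adenine, was 0.81 and 1.09, and Chchd10, a mitochondrial intermembrane protein gene, 1.27 and 1.64. None of these 5 differed between Dose II and HFD at the threshold (adjusted p = 0.67, 0.986, 0.972, 0.111 and 0.156).

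A further 188 genes, of which 60 were lower and the rest higher, differed from both control and HFD while HFD was within 0.5 of control, so that the diet alone had not moved them measurably. Idh2, the mitochondrial NADP-dependent isocitrate dehydrogenase, was above every control library (0.41 ± 0.08 (SE), adjusted p = 1.11e-04). Cyp2f2, a P450 of periportal hepatocytes, and Tef, a clock-controlled transcription factor gene, were higher with overlap (0.75 and 0.77 on the log2 scale, adjusted p = 9.62e-04 and 0.0111). Igsf9, an immunoglobulin superfamily gene, was 0.02 in HFD and 0.91 in Dose II (adjusted p = 0.0023 in Dose II). Mylk, myosin light chain kinase, and the tyrosine kinase gene Src were lower (-0.92 ± 0.21 (SE), adjusted p = 6.82e-04 and -0.89 ± 0.23 (SE), adjusted p = 0.00166). Sult1a1, a sulfotransferase gene, lay above all libraries of both groups at 232, 292 and 464 CPM against 61.97, 102.97 and 154 in control and 43.98, 78.4 and 161 in HFD, 3.02-fold above control (1.60 ± 0.27 (SE), adjusted p = 1.63e-05). It was not among the 188 because its HFD difference (-0.28) was not shown to lie within 0.5.

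Periportal markers were higher than control as a group, with 9 of 16 called higher and none lower (median 0.40, and 6 of 16 with library P15763_105). In HFD, 3 of the 16 were higher and 3 lower. Asl, argininosuccinate lyase, was 1 of the 9, with 363, 394 and 629.9 CPM in control and 531, 655 and 953 in Dose II (0.64 ± 0.15 (SE), adjusted p = 6.06e-04). Of 12 pericentral markers, 3 were higher and 2 lower, against 23.9% and 23.4% of all genes.

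Genes of redox defence were higher than control in 9 of 24 cases and lower in 3 (7 and 3 with library P15763_105). The shares of all genes tested were 23.9% and 23.4% (15.6% and 17.3% with that library). HFD already had 8 of the 24 higher than control and 3 lower. Between Dose II and HFD, 4 were higher in Dose II and 1 was lower. Gpx1, the main cytosolic glutathione peroxidase, held 1059.5, 1377 and 1571 CPM in control and 1814, 2482 and 2799 in Dose II (0.80 ± 0.12 (SE), adjusted p = 1.44e-06), with no overlap. Gpx4, the peroxidase of lipid hydroperoxides, was farther from control than in HFD (0.27 and 0.58 on the log2 scale). Prdx2, a peroxiredoxin, was above control in HFD (1.51) and in Dose II (1.29), and these groups did not differ at the threshold (log2 -0.21, adjusted p = 0.504). Library P15763_105 was above all Dose II libraries for Gpx1 (4084 CPM), and the log2 difference was 0.50 with it included (adjusted p = 0.0283).

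Ribosomal and respiratory chain genes were higher almost throughout. Of 26 cytosolic ribosomal protein genes, 25 were higher than control (median 0.54), and of 52 nuclear genes of oxidative phosphorylation, 49 (median 0.42), with none lower in either. Most were already higher than control in HFD, 25 of 26 (median 0.37) and 44 of 52 (median 0.31). Between Dose II and HFD, 6 of the 26 and 4 of the 52 were higher in Dose II and none was lower. Rps12 held 138.3, 154 and 192 CPM in control and 199, 299.7 and 332 in Dose II (0.88 ± 0.09 (SE), adjusted p = 2.03e-09), and Cox7c, a cytochrome c oxidase subunit, 53.9, 67.1 and 82.4 and 91.8, 129.8 and 151 (0.88 ± 0.11 (SE), adjusted p = 8.55e-08), neither with overlap. Rpl30 was also above every control library (0.65 ± 0.06 (SE), adjusted p = 2.27e-09), whereas Uqcrq, of complex III, overlapped (1.01 ± 0.13 (SE), adjusted p = 1.33e-07). These are short genes, and the counts moved with both features named at the start. With library P15763_105 included, 15 of 26 and 23 of 52 were higher, and with the length trend taken out, 17 of 26 and 32 of 52 (medians 0.32 and 0.22). In the opposite direction, 26 of 39 long transcripts of widely expressed genes, such as the ubiquitin ligase gene Huwe1 (-0.55 ± 0.07 (SE), adjusted p = 1.33e-07) and the deubiquitinase gene Usp9x (-0.78 ± 0.10 (SE), adjusted p = 1.33e-07), were lower and none was higher. With the trend taken out, 13 of the 39 were lower and 8 higher. HFD already had 22 of the 39 lower than control and 1 higher.

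Lysosomal genes were higher in 28 of 60 cases and lower in 10 (23 and 8 with library P15763_105, 26 and 12 with the length trend taken out). The shares of all genes tested were 23.9% and 23.4%. HFD already had 31 of the 60 higher than control and 7 lower (median 0.26, and 0.21 in Dose II). Between Dose II and HFD, 1 of the 60 was higher in Dose II and 2 were lower. Ctsz, cathepsin Z, held 113.1, 139 and 157 CPM in control, 207, 239.6 and 321 in HFD and 221, 277 and 382 in Dose II (1.04 ± 0.10 (SE), adjusted p = 2.27e-09 against control), and Hexa, a hexosaminidase subunit, rose by 1.42 ± 0.17 (SE), adjusted p = 9.04e-08. Against HFD neither was called (log2 0.16 and 0.04). Gaa, acid alpha-glucosidase, which breaks down glycogen in lysosomes, rose farther than in HFD (0.62 and 0.97).

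**Figure D5:**
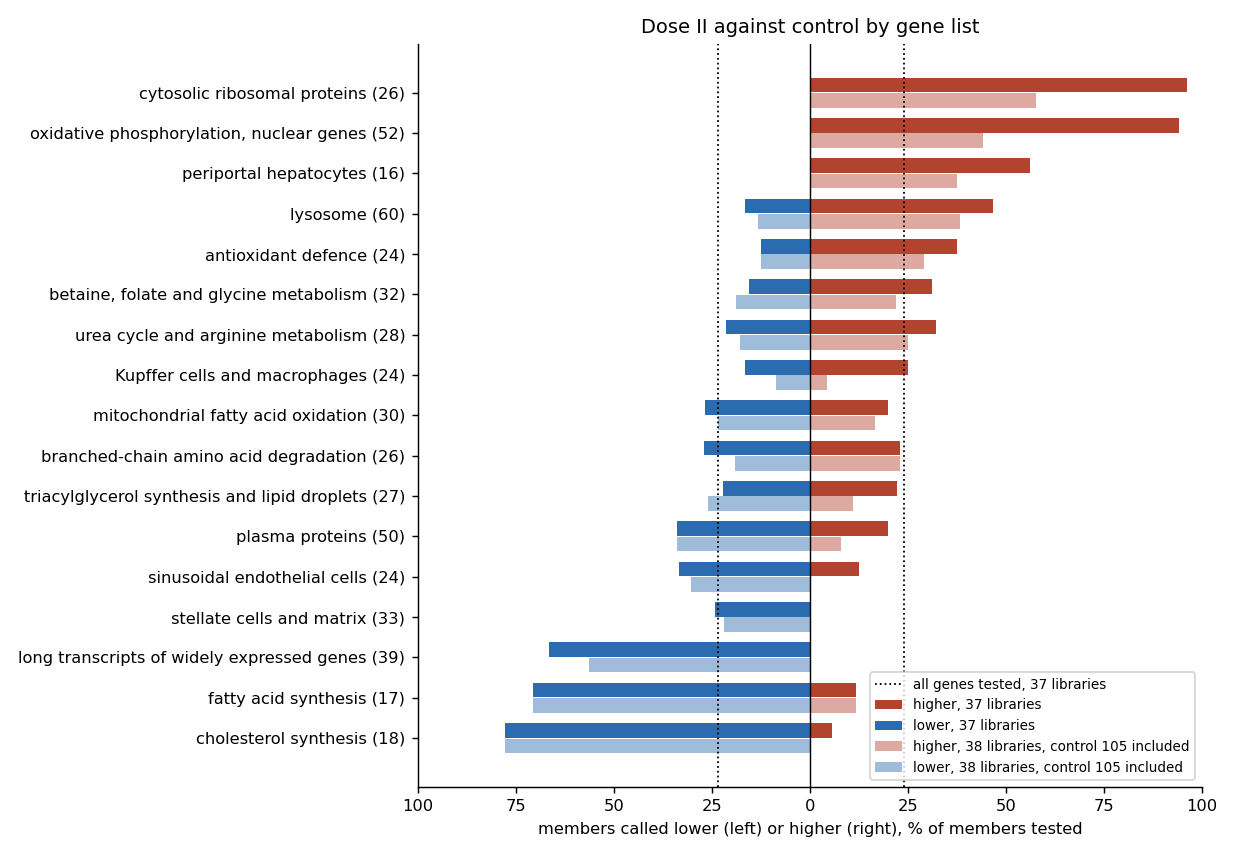
Share of the tested members of 17 gene lists (number tested in parentheses) called higher (right) or lower (left) in Dose II than in control, in 37 libraries (dark) and with control library P15763_105 included (light). The dotted lines mark all genes tested, 23.9% higher and 23.4% lower. Cholesterol and fatty acid synthesis lie beyond the lower line in both fits, and the ribosomal and respiratory lists shrink most with library P15763_105.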

How the data were processed

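Liver RNA of 38 hamsters was sequenced by the study, and conditions were taken from the labels. The authors quantified reads with kallisto on MesAur1.0 (release 101) and deposited estimated counts per gene symbol, not normalized, and TPM of the same symbols. The deposited estimated counts were rounded and tested with edgeR 4.0.16 in R 4.3.3 (filterByExpr, TMM, 1 coefficient for each of the 4 groups, 37 libraries, quasi-likelihood test, Benjamini-Hochberg adjusted p under 0.1). CPM values of single libraries are TMM-normalized over all 38, and CPM is comparable between libraries but not between genes. SEs are the log2 difference over the square root of F. Equivalence was tested against 0.5 on the log2 scale. Gene length was taken, on a relative scale, as estimated counts over TPM, and its trend in each library was removed through offsets (lowess span 0.3) as an alternative. DESeq2 1.42.0 and limma 3.58.1 on log2(TPM + 1) were others. The study left out 1 control library after a principal component analysis without naming it in the sources used here. P15763_105, the control library farthest from the others, was taken to be that library. No pair of libraries within a group agreed within sampling noise (lowest chi-square per degree of freedom, 6.76).

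The comparison, the gene lists and the rule for named genes were chosen with earlier results of these data known. The rule took in each direction the 10 genes of smallest adjusted p, the 10 largest HFD differences in each class (mean of at least 1 CPM), up to 4 called members of each list, marker enzymes, and genes the study names. Some genes under this rule are not reported here. The tests were checked on simulated data. Csf1r, Tyrobp and Hmox1 were added after their values were seen. The 0.5 bound, the low-count filter, RLE scaling and leaving out single libraries were also varied. Near-identical genes may share reads in the estimates. The p-values measure the spread between libraries taken as separate animals, and counting depth was 4075610 to 10384500 per library.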

Additional observations from a re-analysis of the deposited data

Results flagged for a closer look

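Among the genes given with values above, the 8 control and 10 Dose II libraries were examined for a single library far from the others (202 groups of values, against Dixon's 95% critical value, which about 1 in 20 groups passes by chance), and 19 stood out. Control library P15763_109 was the highest for 5 genes, with Acly at 2372 CPM (next 926), Elovl5 at 969 (next 639), Sqle at 19.2 (next 12.6), Hmgcs1 at 59.4 (next 34.8) and Cpxm2 at 33.6 (next 16.9). All 5 calls held without it. Dose II library P15763_131 was the highest for 4, with Apoa2 at 7939 CPM (next 6498), Cyp7a1 at 45.3 (next 20.2), Prdx2 at 96.3 (next 65.97) and Hexa at 51.8 (next 35.7). Without it Cyp7a1 was called lower than control, whereas the other 3 kept their calls.

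Dose II library P15763_135 was the highest for Cps1 (8356 CPM) and Asl (953), library P15763_129 for Cfp (26.9), library P15763_130 for Mrc1 (21.8) and library P15763_134 for Exoc3l4 (17.7), and library P15763_133 was the lowest for Rpl30 (213.5). In control, library P15763_106 was the highest for Dmgdh (457), library P15763_102 for Gaa (81.8), library P15763_103 for Irs1 (35.7) and library P15763_104 for Asl (629.9). These calls held in every fit that left 1 library out.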

How the results depend on the processing

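No paired analysis was possible because the labels number each library separately and tie none to a library of another group. With library P15763_105 included, 1413 genes were higher than control, and 30 were back at the control level, 3 partly back and 22 farther. Of the 30, 25 were among the 55 of the 37-library fit. Without the filter on low counts 35 genes were back and 3 partly back. An adjusted p under 0.05 left 24 back, 1 partly back and 49 farther. With the length trend taken out 97 were farther and 59 back, 37 of these 59 being among the 55. Limma on log2(TPM + 1) placed 83 back, and only 35 of these were among the 55. A bound of 0.3 left 818 genes within it and 15 back. No called difference of a named gene changed its sign under these settings, whereas genes near 0 that were not called did, such as Fcgr4 (log2 0.02, and -0.20 with the length trend taken out) and Tmed3 (0.17, and -0.01 with P15763_105). Over the 18 fits that left 1 library out, 2047 to 2212 genes were higher, 1982 to 2212 lower and 4010 to 4342 within 0.5. The back class ranged from 34 (without Dose II P15763_135) to 59, the partly back class from 3 (without control P15763_104) to 7 (without Dose II P15763_130), and the farther class from 87 to 226. The cause of these shifts was not tested. Of 1105 values recomputed for named genes, 1092 stayed on their side of the threshold, 7 lost the call and 6 gained one. Neither test passed for 1501 genes, which these libraries place neither near control nor apart from it.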
